A study of Bos taurus with 11 samples.

Results

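Transcript levels in the endometrium were compared between the 5 cows of the subfertile group, which are 5 of the 11 cows of the study, without reference to the fertile cows. Each of these Bos taurus cows had failed to conceive at 3 attempts in a row, by embryo transfer or artificial insemination, although the genital tract showed nothing abnormal and the cycle around the biopsy looked normal. An endometrial biopsy was taken from each on day 7 of the cycle, and no treatment is named for any of them. Total RNA of each cow was labelled with the dye Cy3 and hybridised to 1 Agilent array, so that each cow is a separate animal with 1 measurement. All 5 arrays were scanned on 1 day. The question was which genes differed most and least between animals that share a diagnosis, a cycle day and a scan day, and which of these genes moved together.

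A level is given throughout as the log2 processed signal of a probe minus the 75th percentile of its array, so that a difference of 1 is a 2-fold difference between cows, and levels of different probes are not comparable with each other. Where 5 levels are listed in a row they belong to cows 1 to 5 in that order. Of 43653 probes, 27190 (62.3%) were well above background on all 5 arrays by the flag of the scanner software and form the data described. A further 2411 probes carried the flag on 3 or 4 arrays, 3553 on 1 or 2 and 10499 on none. The 27190 probes include 21318 that carry the symbol of 1 of 11093 genes, and each gene is represented by its brightest probe. The spread of a gene is the SD of its level over the 5 cows (n = 5), and the number of arrays limits the precision of every SD.

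The endometrium is a layered tissue. It has a surface epithelium with ciliated and secretory cells, and glands that release the histotroph feeding the early embryo. It also has a fibroblast stroma with vessels and resident leukocytes. The smooth muscle of the myometrium lies beneath the endometrium and is not part of it. On day 7 the corpus luteum secretes progesterone and the embryo, where there is one, has reached the uterus. A biopsy takes the layers of the endometrium together, in proportions that can differ from animal to animal. Whether these biopsies held any myometrium is not given in the sources used here. In bulk RNA a smaller number of cells of a type and less RNA per cell cannot be told apart, and this holds for every cell type named here. Markers of the tissue were present: 24 of the 25 epithelial genes listed and 18 of the 21 stromal genes listed were well above background on all 5 arrays.

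The arrays differed in brightness. The median signal was 92.66 on the array of cow 1, 65.93 for cow 2, 65.28 for cow 3, 72.74 for cow 4 and 54.26 for cow 5, and the percentage of probes that passed the background flag was 74.2%, 67.5%, 68.4%, 67.9% and 64.5% in the same order (mean 68.5% ± 3.53, SD, n = 5). Cow 1 was the brightest array and cow 5 the dimmest, and cow 5 had 76 spots set aside as outliers against 1 to 10 on the others. No spot was saturated. Cow 1 was alone on its slide, cows 2 and 4 shared a slide, and cows 3 and 5 shared another. Whatever sets cow 1 apart and whatever sets slide 1 apart therefore cannot be told apart. Over all genes, pairs of arrays on the same slide differed by a root mean square of 0.5 and pairs on different slides by 0.537, a difference of 0.0363 (exact one-sided permutation test over the 15 ways to place the slides, p = 0.2, where the smallest p possible is 0.0667). Every pair with cow 1 counts as different slides, and these pairs had 0.563, 0.621, 0.582 and 0.583. The other pairs on different slides had 0.403 to 0.566, and the pairs on the same slide 0.463 and 0.538. The difference between slides therefore cannot be told apart from the distance of cow 1 to the other cows. The closest pair, cows 2 and 5 at 0.403, came from different slides, and the farthest was cows 1 and 3 at 0.621.

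Most genes differed little between the cows. The median SD was 0.216, and the 5th and 95th percentiles were 0.0773 and 0.766. An SD of at least 1 was reached by 242 genes, 2.18% of all, and 475 genes spanned at least 2 log2 units from the lowest to the highest cow. The top 10% of genes by SD (1109 genes) began at an SD of 0.572 and the bottom 10% (1109 genes) ended at 0.0972. GALNT6, a glycosyltransferase that starts O-linked glycans, lay just inside the top 10% at 0.572 (0.173 with normexp, a model-based background correction of the raw signal that narrows the spread of dim probes), and the hyaluronan-binding protein TNFAIP6 just outside at 0.571. The error between spots of 1 array was read from 44 probes printed 4 times on each array. Their spots differed within an array by a median SD of 0.0608. The same probes, averaged over their spots, differed between cows by 0.208, and 41 of the 44 varied more between cows than within arrays. Each cow had 1 array, so error from labelling and hybridisation is part of the SD between cows and was not measured. Dim probes varied more, with a median SD of 0.287 among dim genes, 0.199 among middling and 0.177 among bright ones, in 3 classes of equal size, and an SD of at least 1 was found for 3.73%, 1.84% and 0.973% of them. A second probe of the gene was available for 410 genes of the top 10%, and in 289 of these (70.5%) it also passed an SD of 0.572, against 150 of 5777 other genes (2.6%). The second probe was highest in the same cow for 336 of the 410 (82%), and for 56.5% of the other genes.

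**Figure D1:**
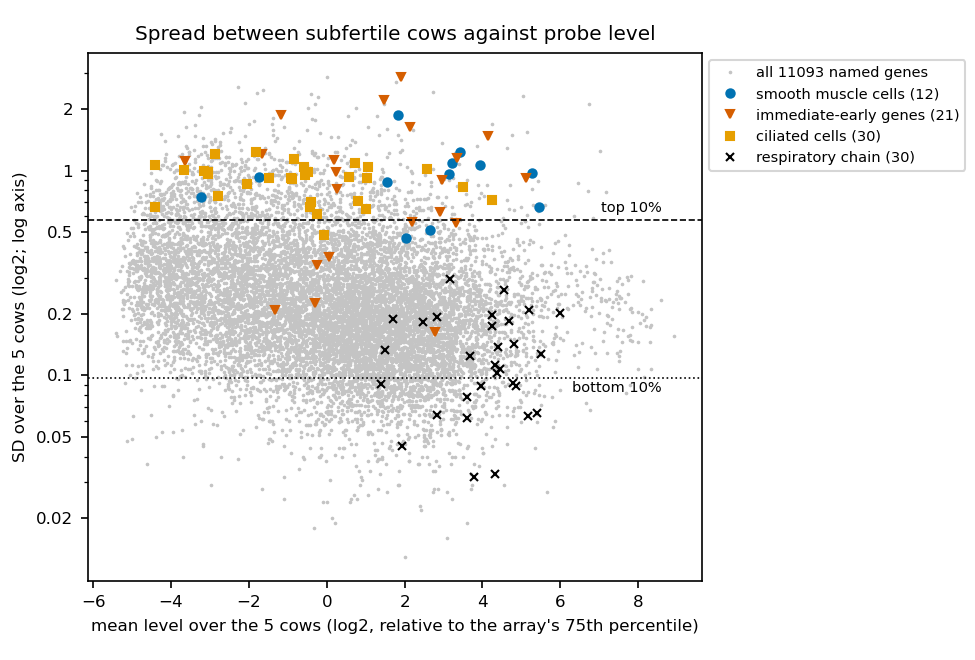
Each grey point is 1 of 11093 named genes, with the mean level over the 5 cows on the x axis (log2, relative to the 75th percentile of the array) and the SD over the 5 cows on the y axis (log2, drawn on a log axis). Coloured symbols mark the measured members of 4 gene lists, the dashed line the start of the top 10% at 0.572 and the dotted line the end of the bottom 10% at 0.0972: 29 of 30 ciliated genes lie above the dashed line and none of the 30 respiratory chain genes does.

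Of the 20 genes with the largest SD, FOS, EGR1, ATF3, JCHAIN, BOLA, BOLA-NC1 and RSPO3 are on a gene list, and the others are on none. FUT6, a fucosyltransferase that finishes Lewis-type glycans, had the largest SD of all, 2.87 (jackknife SE 0.54), with levels of -3.46, -2.62, 2.16, 2.93 and 0.98 in cows 1 to 5. Cows 3, 4 and 5 were high and cows 1 and 2 low, a span of 83.5-fold. PI3, the elastase inhibitor elafin of mucosal surfaces, ranged over 127-fold at 0.40, -1.41, 3.35, 1.02 and 5.57, and GP2, a glycoprotein of epithelial surfaces that binds bacteria, over 62.6-fold at -3.16, -5.06, -0.14, -4.03 and 0.91. For both genes cow 5 was highest, cow 3 next and cow 2 lowest. The other probes of PI3 had cow 2 lowest too, but placed cow 3 level with cow 5, at 0.84 and 0.78 on one of them and 0.85 and 0.89 on the other.

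**Figure D2:**
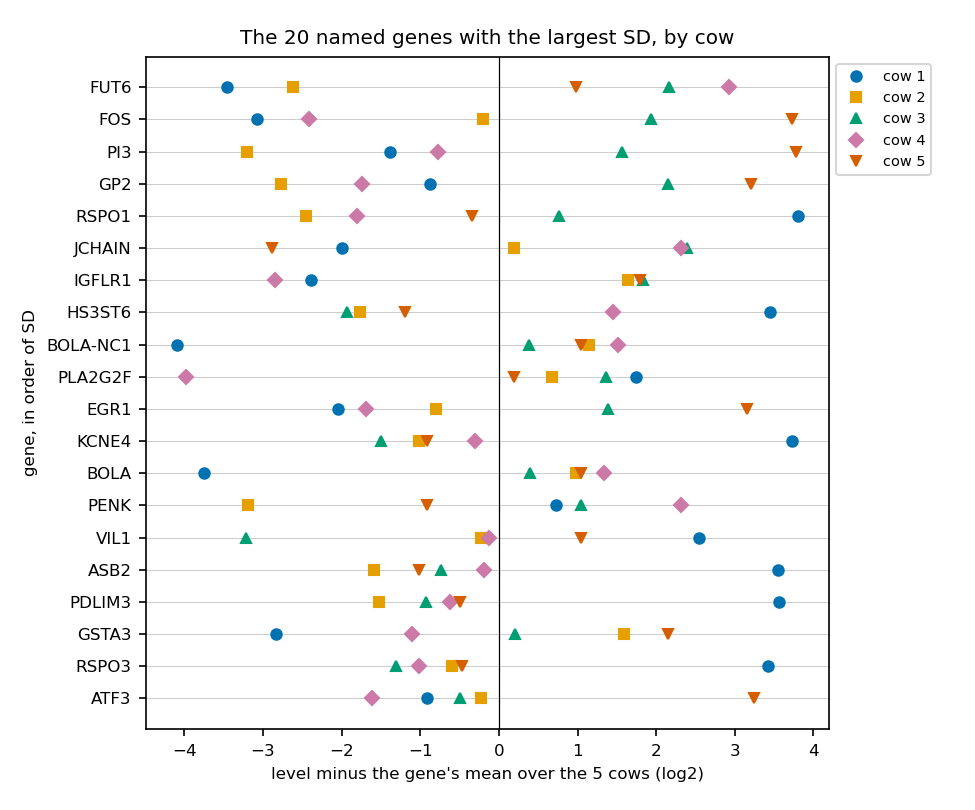
The 20 named genes with the largest SD are listed from the top in order of SD, and each symbol is the level of 1 cow minus the mean of the gene over the 5 cows (log2, x axis). Cow 1 lies far to the right for KCNE4, ASB2, PDLIM3 and RSPO3 and far to the left for BOLA and BOLA-NC1, while cow 5 lies to the right for FOS, EGR1 and ATF3.

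Other genes of the 20 had patterns of their own. RSPO1, a secreted amplifier of WNT signalling, stood at 2.17, -4.08, -0.87, -3.43 and -1.97, with cow 1 far above the rest (SD 2.47, 1.44 without cow 1). HS3ST6, which adds sulphate to heparan chains, was high in cows 1 and 4 on both of its probes, at 3.04, -2.17, -2.34, 1.04 and -1.61 on the brighter (SD 2.36, 1.57 without cow 1). VIL1, the villin of epithelial microvilli, was highest in cow 1 and lowest in cow 3, at 2.25, -0.52, -3.50, -0.42 and 0.75 (SD 1.29 without cow 3). These 3 genes share the high value in cow 1 but place the other cows in different orders. PLA2G2F, a secreted phospholipase A2, was low in cow 4 only, at 1.51, 0.45, 1.13, -4.21 and -0.04 (SD 2.30, 0.689 without cow 4). PENK, the precursor of enkephalins, was low in cow 2 and high in cow 4, at 2.19, -1.72, 2.52, 3.78 and 0.56 (SD 1.33 without cow 2). IGFLR1, a receptor of the TNF receptor family, split the cows into 2, 3 and 5, near 0, and 1 and 4, far below, at -4.19, -0.16, 0.03, -4.65 and -0.01. GSTA3, a glutathione transferase, ran from -3.30 in cow 1 to 1.68 in cow 5, and its second probe gave the same order of cows.

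Genes of smooth muscle contraction were high together in 1 animal. All 12 measured members of the smooth muscle list had their highest level in cow 1, where 27.5% of all genes did, and 10 of the 12 were in the top 10% (10% of all genes). The list mean, as the average over members of the level minus that gene's mean, was 1.58 in cow 1 and between -0.65 and -0.19 in cows 2 to 5. ACTG2, the gamma actin of visceral smooth muscle, had the levels 5.14, 0.83, 0.75, 1.04 and 1.37, with cow 1 more than 3 log2 units above every other cow. MYH11, the smooth muscle myosin heavy chain, was 5.42, 2.92, 2.27, 3.72 and 2.80, with cow 4 second and cow 3 lowest. TAGLN, an actin-binding protein of the contractile apparatus, was 5.08, 2.57, 2.33, 2.97 and 3.11. In each of these genes cow 1 lay above the other 4 cows by more than any of those differed from the next. CNN1, another actin-binding protein, had 5.80, 3.17, 3.56, 3.51 and 3.66, again with cow 1 alone at the top.

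ACTA2, the alpha actin of smooth muscle, DES, the intermediate filament desmin, and TPM2, a tropomyosin, were also highest in cow 1, with 6.92, 4.83 and 3.11 in cow 1 against 4.52 to 5.23, 2.50 to 2.93 and 1.01 to 1.39 in the others. PLN, a regulator of the calcium pump of muscle, was the exception, since cow 4 at -2.49 was level with cow 1 at -2.47. The members of the list with the smallest SD, LMOD1 at 0.469 and SMTN at 0.512, were also highest in cow 1. Genes outside the list with the pattern nearest to that of MYH11, by the root mean square distance over the 5 centred levels, were RYR2 at 0.230, RNF112 at 0.317, SLC12A8 at 0.332 and ITGA8 at 0.338. ITGA8, an integrin of mesenchymal cells, stood at 0.87, -1.10, -1.62, -0.98 and -1.16. KCNE4, a potassium channel subunit, ASB2, a muscle ubiquitin ligase subunit, and PDLIM3, a protein of the muscle Z-disc, were among the 20 genes with the largest SD and had 1.62, 0.33 and 4.30 in cow 1 against -3.61 to -2.42, -4.81 to -3.41 and -0.78 to 0.24. RSPO3, another R-spondin, was highest in cow 1 at -0.25, -4.27, -4.98, -4.69 and -4.14, and its SD of 1.94 was 1.13 with normexp background correction. COL12A1, a collagen of dense connective tissue, was 2.28, 0.06, -1.09, -0.15 and 0.22, with cow 1 highest and cow 3 lowest.

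The probes of a gene did not all vary alike, and 2 are shown because one varied as the brightest probe of its gene did and the other did not. Both are 60 bases long, placed on build HGSC Btau_3.1 as the scanner files give it, and all of their letters are given in lower case. The ACTG2 probe spans chr11:11148003-11149705 on the minus strand, a stretch longer than the probe, and had an SD of 1.87, equal to that of the brightest ACTG2 probe. The DES probe lies at chr2:111753764-111753823 on the plus strand and had an SD of 0.22.
ACTG2 probe: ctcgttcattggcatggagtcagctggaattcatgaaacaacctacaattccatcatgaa
DES probe: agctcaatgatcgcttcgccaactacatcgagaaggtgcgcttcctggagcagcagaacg
At this ACTG2 probe the levels were 3.32, -0.95, -1.10, -0.68 and -0.63, and cow 1 was highest at all 3 ACTG2 probes. The remaining one had 2.02, 0.25, 0.40, 0.63 and 0.28 and a smaller SD of 0.74. At this DES probe the levels were 1.40, 1.81, 1.69, 1.90 and 1.95, with cow 1 lowest, while the other 2 DES probes had cow 1 highest, at 4.83, 2.61, 2.50, 2.93 and 2.81 on the brightest. The last DES probe had 1.85, -0.60, -0.57, -0.16 and -0.43.

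The smooth muscle pattern rests on cow 1. Without it the SD of the list mean was 0.228 instead of 0.905, and 2 of the 12 members were in the top 10%. Without cow 1 the SD was 0.274 instead of 1.87 for ACTG2, 0.601 instead of 1.23 for MYH11, 0.358 instead of 1.09 for TAGLN, 0.215 instead of 1.06 for CNN1. In the same setting it was 0.189 for LMOD1, 0.474 for RYR2, 0.307 for RNF112, 0.615 for SLC12A8 and 0.277 for ITGA8. It was 0.488 for KCNE4, 0.585 for ASB2, 0.453 for PDLIM3, 0.387 for RSPO3 and 0.585 for COL12A1. RYR2 and SLC12A8 are dim, and with normexp background correction their SDs were 0.347 and 0.355 instead of 1.09 and 0.932. Cow 1 had the brightest array and its own slide, and the part of either in this pattern was not tested.

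Immediate-early genes, which cells switch on within minutes of a stimulus without making new protein, were set apart by another animal. Of 21 measured members 14 were in the top 10% and 9 had an SD of at least 1, and 20 of the 21 were highest in cow 5, where 20% of all genes were. FOS, a subunit of the AP-1 transcription factor, had the second largest SD of all genes, 2.87 (jackknife SE 0.71), with levels of -1.15, 1.72, 3.86, -0.49 and 5.65. Cow 5 was highest, followed by cows 3 and 2, and cows 1 and 4 were far lower, a span of 111-fold. EGR1, a zinc finger factor of the same response, was -0.58, 0.66, 2.85, -0.23 and 4.62, in the same order of cows.

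The other AP-1 subunits shared this order in part. JUNB, which pairs with FOS, was 0.44, 2.17, 2.79, 0.78 and 4.52. JUN, another partner, was 2.43, 4.20, 4.83, 3.08 and 6.19. Both had cow 5 highest, then cows 3, 2, 4 and 1. FOSB differed in that cow 1 was second, at 5.59, 4.56, 5.04, 4.0 and 6.38. ATF3, a stress-induced factor of the same family, was high in cow 5 only, at -2.08, -1.40, -1.66, -2.78 and 2.07 (SD 1.88, 0.6 without cow 5). CCN1, a secreted matrix protein of this response, and DUSP2, a phosphatase that ends MAP kinase signals, likewise had 0.48 and -1.87 in cow 5 against -2.39 to -1.83 and -4.60 to -3.29. KLF4 ranged from -1.24 in cow 1 to 1.89 in cow 5, with cows 2, 3 and 4 at -0.18 to 0.30. At the other end FOSL2, a slower member of the FOS family, had an SD of 0.163 (0.101 with normexp background correction), and EGR2 was the member not highest in cow 5, at -1.01, -1.30, -1.48, -1.54 and -1.32.

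FOS was measured by 3 probes, and the sequence of the dimmest is shown because it gave the same order of cows as the brightest. It lies at chr10:88961882-88961941 on the plus strand of build HGSC Btau_3.1, and all letters are lower case.
FOS probe: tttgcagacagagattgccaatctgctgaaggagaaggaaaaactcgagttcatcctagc
Its levels were -6.21, -3.16, -0.72, -5.34 and 1.31 (SD 3.14) and those of the remaining FOS probe -2.16, 0.68, 2.93, -1.49 and 4.95 (SD 2.99). All 3 probes placed the cows in the order 5, 3, 2, 4, 1. The 3 JUN probes had SDs of 1.43 to 1.53, with cow 5 highest and cow 1 lowest at each.

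Without cow 5 the SD of the immediate-early list mean was 0.447 instead of 0.938, and 8 of the 21 members were in the top 10% instead of 14. The list mean was 0.18 in cow 3, -0.23 in cow 2 and -0.74 in both cow 1 and cow 4. Cow 5 had the dimmest array and the most outlier spots, and the part of these in the pattern was not tested. Genes outside the list whose pattern was near that of FOS, beside EGR1 at a distance of 0.718 and JUNB at 1.14, were IGFLR1 at 1.25 and SCARA3, a scavenger receptor of oxidised molecules, at 1.38, with levels of -1.23, 0.47, 0.40, -1.34 and 2.23 (SD 1.47, 0.754 as the mean of its probes).

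Chemokines and acute inflammatory genes also stood high in cow 5. Of 15 measured members of that list 9 were highest there and 8 were lowest in cow 1, against 20% and 24.2% of all genes, and 7 were in the top 10%. CXCL3, a neutrophil attractant, was 0.02, 0.40, 1.08, -0.04 and 3.88. CCL2, a monocyte attractant, was -1.58, -1.25, -1.65, -1.49 and 0.74. For both, cow 5 lay far above the other 4. CCL8, also an attractant of monocytes, was -2.68, -2.06, -1.12, -1.26 and 0.34. CCL4, an attractant of monocytes and lymphocytes, was -3.20, -2.40, -2.05, -2.30 and -0.67, and both again had cow 5 highest and cow 1 lowest. SAA3, an acute phase protein of epithelium, was instead low in cow 3 alone, at 7.05, 6.83, 5.30, 7.10 and 7.24, and CXCL10, induced by interferon, was highest in cow 4 at 1.17. NFKBIA, the inhibitor that NF-kappa B itself induces, was in the bottom 10% at an SD of 0.096 (0.0552 without cow 4). Without cow 5 the SD was 0.513 instead of 1.64 for CXCL3, 0.176 instead of 1.01 for CCL2, 0.731 instead of 1.14 for CCL8 and 0.499 instead of 0.922 for CCL4, and that of the list mean was 0.295 instead of 0.470.

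**Figure D3:**
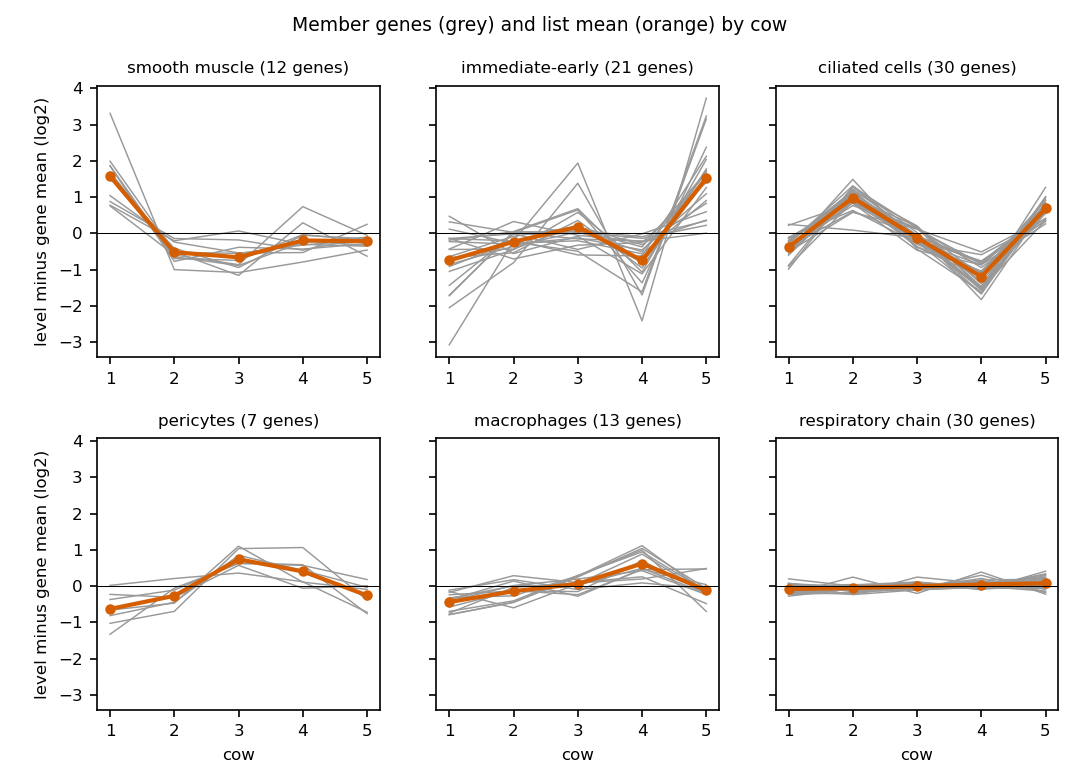
Each grey line joins the levels of 1 gene in cows 1 to 5, as log2 level minus the mean of the gene, and the orange line with points is the mean over the members of the list. The cows have no order, and the lines only join values of 1 gene. Smooth muscle genes are high in cow 1 (list mean 1.58), immediate-early genes in cow 5 (1.53), ciliated genes in cows 2 and 5 (0.98 and 0.69) and low in cow 4 (-1.19), while the 30 respiratory chain genes stay within a list mean of -0.08 to 0.08.

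A further set of genes separated cows 3 and 4 from cows 1 and 5. JCHAIN, the joining chain of secreted IgA and IgM made by plasma cells, was 0.74, 2.93, 5.13, 5.05 and -0.15 (SD 2.42, jackknife SE 0.46), a span of 38.7-fold. Cows 3 and 4 were close together at the top, cow 2 lay between, and cows 1 and 5 were lowest, and the second JCHAIN probe gave -0.46, 1.51, 3.69, 3.70 and -1.44. IGHG1, the constant region of IgG1, which was outside the list, was -3.54, -0.13, -0.25, 0.14 and -3.19, where cow 2 stood with cows 3 and 4. MZB1, a chaperone of antibody assembly in plasma cells, was -3.08, -2.65, -1.43, -1.25 and -3.69 (SD 1.05, 0.698 with normexp background correction). Cows 1 and 5 were lowest in these 3 genes. DERL3, a plasma cell gene of the same list that acts in protein quality control, did not share this, at -2.89, -3.46, -3.48, -2.83 and -3.76 (SD 0.404), with cows 4 and 1 highest.

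The list members known from B cells before the plasma cell stage did not share one pattern. CD79A, part of the B cell receptor, had an SD of 0.181 at -0.10, -0.46, -0.34, -0.56 and -0.23, and PAX5 and FCER2 had SDs of 0.248 and 0.205. BLK, a kinase of B cells, was wider at an SD of 0.521, with -3.41, -2.20, -2.24, -2.99 and -2.48, where cow 1 was lowest and cow 2 highest. In all, 2 of the 7 measured members of the B and plasma cell list were in the top 10%, and 4 others on the array had no probe well above background in all 5 cows. Beside IGHG1, the genes of the top 10% nearest to JCHAIN were MOXD1, CLIC3, ANPEP and SOX17, at distances of 0.921 to 1.24. MOXD1, a relative of dopamine hydroxylase, was -1.74, -1.80, 0.65, 0.54 and -3.12, and CLIC3, a chloride channel protein, was -3.48, -3.56, -1.42, -0.68 and -4.18 (SD 1.52, 1.01 with normexp background correction). ANPEP, the aminopeptidase CD13, was 3.23, 4.32, 6.04, 5.89 and 3.61. SOX17, a transcription factor of uterine epithelium and of vessels, was 0.10, 0.30, 2.27, 2.36 and 0.0. Each of these 4 genes split the cows into 3 and 4 above 1, 2 and 5, a split held by 66 genes of the top 10% (5.95%) and by 2.45% of all genes.

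Pericyte genes, which mark the contractile cells around small vessels, were high in cow 3, and in part in cow 4. Of 7 measured members 5 were in the top 10%, 6 were highest in cow 3, where 19.0% of all genes were, and 1 in cow 4. RGS5, an inhibitor of G protein signals, was -3.82, -3.49, -1.76, -1.73 and -3.18, with cows 3 and 4 level and the other 3 far lower. HIGD1B, a pericyte marker of unsettled function, was -0.13, 1.14, 1.82, 1.77 and 1.38. ABCC9, a subunit of the potassium channel of these cells, was -5.33, -4.96, -3.67, -4.08 and -4.55, and cow 1 was lowest in both. KCNJ8, the pore of that channel, was highest in cow 3 at -0.98, -0.79, 0.78, -0.21 and -0.41 (SD 0.687, 0.349 without cow 3). The list mean was 0.74 in cow 3, 0.41 in cow 4 and -0.63 in cow 1, so that cow 1, with the highest smooth muscle genes, had the lowest pericyte list mean. Of the 7 members 4 were lowest in cow 1, against 24.2% of all genes, while 2 were lowest in cow 5 and 1 in cow 2. HIGD1B without cow 1 had an SD of 0.325 instead of 0.79, and with normexp correction that of RGS5 was 0.645 instead of 0.985 and of ABCC9 0.325 instead of 0.663.

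Macrophage genes and MHC class II genes were high in cow 4. Of 13 macrophage and dendritic cell genes 9 were highest in cow 4, where 15.3% of all genes were, and 10 were lowest in cow 1, against 24.2% of all genes. The complement recogniser C1q has 3 chains. C1QA was 1.79, 2.08, 2.78, 3.43 and 2.34. C1QB was 0.96, 1.30, 2.0, 2.79 and 1.68. C1QC was 0.78, 1.12, 1.84, 2.68 and 1.39. All 3 placed cow 4 highest, cow 3 second, then cow 5, then cow 2, and cow 1 lowest. MRC1, the mannose receptor of tissue macrophages, was highest in cow 4 at -2.60 against -4.29 to -3.31, and CD68, a lysosomal protein of macrophages, had an SD of 0.125 (0.227 as the mean of its probes). Without cow 4 none of the 13 genes was in the top 10%, against 4 with it, and the SDs were 0.419 for C1QA, 0.448 for C1QB, 0.447 for C1QC and 0.402 for MRC1, against 0.644, 0.701, 0.736 and 0.656 with it. With normexp correction that of MRC1 was 0.367.

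Among class II genes, 2 of 6 measured were in the top 10%. Of the 6, 5 were highest in cow 4 and 5 lowest in cow 1, against 15.3% and 24.2% of all genes. BOLA-DQB, a beta chain whose gene is polymorphic in cattle, was 0.66, 0.76, 1.09, 2.92 and 1.39 (SD 0.914, 0.331 without cow 4). CD74, the invariant chain that escorts class II molecules, ran from -1.08 in cow 1 to -0.15 in cow 4 (SD 0.373, 0.241 without cow 4). Of 5 mast cell genes 2 were in the top 10% and 3 were lowest in cow 1, against 24.2% of all genes. CPA3, a protease of their granules, was -5.20, -4.35, -3.22, -3.66 and -4.47. HDC, which makes histamine, was -4.75, -3.84, -3.42, -2.99 and -3.41 (SD 0.347 without cow 1). GATA2, a transcription factor of mast cells and other cells, was lowest in cow 5, and KIT, the receptor of stem cell factor, in cow 2, at -0.82, -1.59, -1.15, -0.56 and -1.49. CPA3 and HDC are dim, and with normexp correction their SDs were 0.36 and 0.344 instead of 0.766 and 0.668.

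Of 17 measured T and NK cell genes 3 were in the top 10%, and the list mean ran from -0.32 in cow 1 to 0.28 in cow 4. The members in the top 10% were GZMB, CD8B and CD69. GZMB, a granzyme of cytotoxic cells, was -1.68, 0.13, 2.38, 0.61 and -0.07 (SD 1.46), highest in cow 3 and lowest in cow 1. CD69, a marker of recent activation, was -4.98, -4.49, -3.67, -3.75 and -3.52 (SD 0.628), highest in cow 5 and lowest in cow 1. CD8B had an SD of 0.635, while CD3E, part of the T cell receptor, was -2.20, -1.77, -1.89, -1.42 and -2.22 and LCK, its kinase, had an SD of 0.111. Neutrophil genes could hardly be followed: 6 of the 15 listed were measured and none was in the top 10%, and S100A9 had no probe well above background on all 5 arrays. S100A8, its partner, was dim and higher in cow 5 at -3.1 than in the others at -4.40 to -4.05 (SD 0.537, 0.157 without cow 5 and 0.355 with normexp correction).

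Genes of motile cilia varied together across several cows. Of 30 measured members 29 were in the top 10%, 27 were highest in cow 2 (18.2% of all genes were) and the other 3 in cow 5, and 29 were lowest in cow 4, against 24.2% of all genes. RSPH9, a part of the radial spoke, was -2.28, -0.32, -2.24, -3.41 and -0.81. RIBC2, a protein inside the microtubule doublets, was -3.15, -1.55, -2.84, -4.69 and -2.10. In both, cows 2 and 5 were high, cows 1 and 3 lay between and cow 4 was lowest. ENKUR, also found inside the doublets, was -1.12, 0.33, -1.08, -2.51 and 0.13. CFAP45, another of these, was 0.51, 1.85, 0.68, -0.94 and 1.53, and both gave the same order of cows as RSPH9. FOXJ1, the transcription factor that switches this set on, was -3.35, -1.70, -2.96, -3.54 and -2.37 (SD 0.754), with cows 4 and 1 lowest. The member with the smallest SD, CFAP126, at 0.483, still had cow 4 lowest and cow 2 highest.

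The range of SD in the set was 0.48 to 1.24, and its dynein genes kept the pattern. DNAI1, an intermediate chain of the outer dynein arm, was -3.80, -2.73, -3.79, -5.22 and -2.82. DNAI2, its partner, was -5.39, -3.12, -4.25, -5.57 and -3.71. DNAH9, a heavy chain of that arm, was -3.27, -1.88, -2.84, -4.57 and -2.69, and all 3 had cow 2 highest and cow 4 lowest. Leaving out 1 cow at a time left 23 to 30 of the 30 in the top 10%, the fewest without cow 4. The SD of RIBC2 was 1.20, 0.723 without cow 4 and 0.65 with normexp correction, and that of CFAP45 was 1.09, and 0.648 without cow 4. The genes of the top 10% nearest to FOXJ1 were SCO2, CCDC78, MYH7, PPP1R14C and CCDC40, at distances of 0.0976 to 0.135. CCDC78 and CCDC40 have known roles in building cilia. PPP1R14C had an SD of 0.664, which was 0.363 with normexp correction and 0.385 without cow 2, and SCO2, a mitochondrial copper chaperone, stood at -1.37, 0.15, -1.01, -1.82 and -0.41. Cows 2 and 5 together above the other 3 was the split of 83 genes of the top 10% (7.48%) and of 3.18% of all genes, and cow 4 alone below the others that of 144 (13%) and of 7.23%.

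MHC class I genes differed widely between cows, and the size of the difference depended on the probe. The class I family of cattle holds several near-identical genes whose number and alleles differ between animals, so signals of 1 gene cannot be assigned to it with certainty. The brightest BOLA probe, for a class I heavy chain, was 2.99, 7.72, 7.13, 8.08 and 7.79, and that of BOLA-NC1, a non-classical class I gene, 0.94, 6.18, 5.41, 6.54 and 6.07. Cow 1 was more than 4 log2 units below every other cow at both, and cows 2 to 5 were much closer to each other. Over 9 probes of these genes the gap from cow 1 up to the lowest of the other cows was 4.57, 4.47 and 4.14 at 3 probes, 2.45, 1.09 and 0.75 at a further 3, and 0.05, -0.88 and -1.23 at the last 3. At 2 of the last 3 probes cow 1 was within the range of the other cows.

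The 3 probes with the widest gap share a run of 25 bases, which was looked for after their values had been seen. The run is printed in capitals, and the probes that hold it lie at chr23:28655816-28655875, chr23:28655800-28655859 and chr23:28483940-28483999 on the minus strand of build HGSC Btau_3.1. The 2 BOLA probes among them overlap by position, so they are not independent readings. No other probe on the array holds the run on either strand.
shared run: TCTTTGCTTCATATGCACTGAGTAA
The probes with smaller gaps are shown next. The 2 tail probes read the cytoplasmic end of the chain and overlap by 54 bases, with capitals at the 2 bases where they differ. The membrane probe reads the part that crosses the membrane, and the outer domain probes read the part that holds the peptide. These 3 are in lower case.
BOLA tail probe 1: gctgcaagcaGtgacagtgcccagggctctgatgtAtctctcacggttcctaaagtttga
BOLA tail probe 2: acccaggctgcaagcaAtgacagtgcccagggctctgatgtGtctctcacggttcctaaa
BOLA membrane probe: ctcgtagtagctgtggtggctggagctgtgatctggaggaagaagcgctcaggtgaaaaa
BOLA outer domain probe: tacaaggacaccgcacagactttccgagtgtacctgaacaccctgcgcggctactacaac
BOLA-NC1 outer domain probe: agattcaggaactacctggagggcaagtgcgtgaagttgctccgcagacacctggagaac
The first tail probe is placed at chr23:28656079-28656442, the membrane probe at chr23:28656461-28656947 and the outer domain probes at chr23:28658902-28658958 and chr23:28486347-28486406, all on the minus strand, whereas the files place the second tail probe at chr10:59359562-59359621.

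The levels at the membrane probe were 3.12, 6.45, 5.57, 5.91 and 6.17, with cow 1 lowest. They were 3.71, 5.22, 4.46, 5.66 and 5.04 at the first tail probe and 3.53, 5.47, 4.62, 5.43 and 5.25 at the other, again with cow 1 lowest. They were 0.35, 0.91, -0.53, 1.60 and -0.09 at the BOLA outer domain probe. They were 1.71, 2.21, 0.48, 2.38 and 1.04 at that of BOLA-NC1, and at both of these cow 3 was lowest and cow 4 highest. As the mean of all its probes BOLA had an SD of 1.23 instead of 2.13 and BOLA-NC1 1.01 instead of 2.32, and without cow 1 the SDs of the brightest probes were 0.401 and 0.471. JSP.1, another class I gene, split the cows differently, with 2.28, 2.26, -1.02, 3.27 and -0.28.

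The genes that load class I molecules had smaller SDs. PSMB9, a subunit of the immunoproteasome, was 2.47, 3.1, 3.08, 3.44 and 3.47 (SD 0.401). TAP2, a subunit of the peptide transporter, was 0.81, 1.56, 1.80, 1.47 and 1.66 (SD 0.385). B2M, the light chain shared by class I molecules, was 6.59, 6.73, 6.73, 7.05 and 7.36 (SD 0.314), and cow 1 was lowest in all 3. Other genes of the list went elsewhere. Of the 13 class I list genes 6 were lowest in cow 1, against 24.2% of all genes. The lowest cow was cow 3 for 2 of them, cow 4 for 2 and cow 5 for 3. NLRC5, the transactivator of class I genes, had an SD of 0.195. Without cow 1, 1 of the 13 class I list genes was in the top 10% instead of 3, and the SD of the list mean was 0.240 instead of 0.471.

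**Figure D4:**
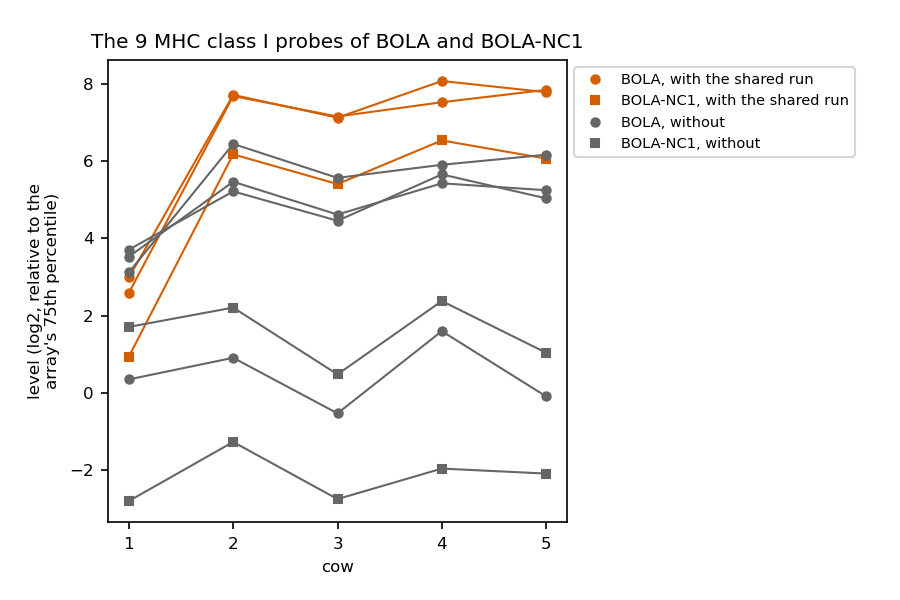
Levels (log2, relative to the 75th percentile of the array, y axis) of the 6 BOLA probes (circles) and 3 BOLA-NC1 probes (squares) in cows 1 to 5, with the lines joining values of 1 probe and the cows in no order. The 3 orange probes hold the shared run of 25 bases and lie more than 4 log2 units lower in cow 1 than in any other cow, while the gap is 2.45 or less at the 6 grey probes.

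Secretory genes of the glands and surface epithelium varied in several directions. LTF, the iron-binding lactoferrin of uterine secretion, was 7.36, 4.95, 3.03, 4.85 and 5.53 (SD 1.55), highest in cow 1 and lowest in cow 3, and its 5 probes all had those cows highest and lowest, with SDs of 1.53 to 1.79. BPIFA1, a secreted protein of mucosal defence, was -0.39, -2.79, -3.79, -2.27 and -1.80. BPIFB1, its relative, was 3.75, 2.60, 1.65, 2.04 and 3.35, and both also had cow 1 highest and cow 3 lowest. AGR2, a chaperone of mucin folding, was instead highest in cow 4 at -0.12, -0.62, -2.07, 0.77 and -0.65 (SD 1.03, 0.664 without cow 3). PIGR, which carries IgA across the epithelium to the lumen, was highest in cow 5 at -1.69, -1.51, -0.74, -2.35 and 0.14. JCHAIN, which belongs to the same secreted antibody route, was lowest in cow 5. LYZ, the lysozyme, was in the bottom 10% with an SD of 0.072, which was 0.136 with normexp correction, 0.157 as the mean of its probes and 0.0396 without cow 5. In all, 6 of 14 secretion genes were in the top 10%.

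Of 24 measured genes of the epithelial framework 1 was in the top 10%, and the median SD of the list was 0.256, against 0.560 for the secretion genes and 0.216 for all genes. That gene was KRT7, a keratin of simple epithelium, at -0.21, 0.25, -1.54, 0.10 and -0.22, where cow 3 was low (SD 0.709, 0.234 without cow 3). MUC1, a membrane mucin, was low in cow 3 too, at 2.31, 2.22, 1.34, 2.33 and 2.26 (SD 0.423, 0.0507 without cow 3), and 15 of the 24 genes were lowest in cow 3, against 20.2% of all genes. CDH1, the E-cadherin of epithelial junctions, had an SD of 0.058, with 0.144 as the mean of its probes and 0.0155 without cow 2. Without cow 3 the SD of the list mean was 0.0451 instead of 0.148.

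Of 18 stromal genes 2 were in the top 10%, and of 15 endothelial genes 2, shares near that of all genes. TCF21, a factor of fibroblast identity, was -1.48, -0.43, -0.05, -1.71 and 0.46. PDPN, a membrane glycoprotein, was 3.59, 4.44, 4.16, 2.77 and 4.55 (SD 0.732, 0.427 without cow 4), and cow 4 was lowest in both. The list as a whole did not share this. Of the 18 genes 8 were lowest in cow 1, against 24.2% of all genes, and 3 in cow 4. The stromal list mean was -0.25 in cow 1 and -0.08 in cow 4. DCN, the proteoglycan decorin, was 6.52, 7.14, 7.29, 6.94 and 7.57, with cow 1 lowest and cow 5 highest. CLDN5, a junction protein of endothelium, was 2.43, 3.07, 1.82, 2.99 and 3.80, highest in cow 5 and lowest in cow 3. LYVE1, a receptor of lymphatic vessels, was dim and higher in cow 1 at -3.02 than in the others at -4.44 to -4.08 (SD 0.584, 0.151 without cow 1 and 0.204 with normexp correction). Of the endothelial genes 10 were highest in cow 4, against 15.3% of all genes, and 9 lowest in cow 1, against 24.2%.

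Among genes of red cells and platelets 2 were high in cow 5. HBA, the alpha chain of haemoglobin, was -0.38, -1.72, -0.56, -1.91 and 1.08 (SD 1.21, 0.784 without cow 5). PF4, a platelet chemokine, was -4.22, -3.80, -4.07, -2.85 and -1.03 (SD 1.32, 0.615 without cow 5). Cow 5 was highest in both, the same cow as for the immediate-early genes and chemokines. AHSP, a chaperone of alpha globin, was instead highest in cow 1, at -2.61, -3.04, -3.09, -3.47 and -3.18 (SD 0.308, 0.193 without cow 1 and 0.168 with normexp correction). ITGA2B, a platelet integrin, was highest in cow 2, at -2.70, -2.31, -2.82, -2.53 and -2.62 (SD 0.19, 0.121 without cow 2). HBB had no probe well above background on all 5 arrays, and the list mean of 0.95 in cow 5 rests on 2 of 4 genes. The SD of the list mean was 0.107 without cow 5 instead of 0.542. The part of blood in the other genes that were high in cow 5 was not tested.

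Among receptors of the uterine programme and their cofactors the median SD was 0.280, against 0.216 for all genes. PGR, the progesterone receptor, was -1.13, -1.03, -1.67, -0.99 and -1.36 (SD 0.28, 0.164 without cow 3). ESR1, the oestrogen receptor, was dim at -3.27, -4.18, -4.42, -4.40 and -4.59, and its SD of 0.525 was 0.168 without cow 1 and 0.145 with normexp correction. OXTR, the oxytocin receptor, was -2.10, -2.39, -3.96, -2.34 and -4.02, with cows 3 and 5 below the other 3 (SD 0.945, 0.471 with normexp correction). NR3C1, the glucocorticoid receptor, had an SD of 0.049 at a dim probe (0.192 with normexp correction). Of 12 receptor genes 1 was in the top 10% and 3 in the bottom 10%. LPL, a lipase that releases fatty acids, was high in cows 1 and 5, at 1.96, -1.23, 0.65, -0.26 and 2.06. PTGER4, a prostaglandin E2 receptor, was high in cows 3 and 4, at -1.38, -1.63, -0.33, -0.11 and -1.55.

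Of 22 WNT and patterning genes 8 were in the top 10%. SFRP4, a secreted WNT antagonist, was high in cow 4 only, at -3.64, -2.75, -3.31, -0.56 and -3.29 (SD 1.24, 0.369 without cow 4). WNT2, a ligand of uterine stroma, was low in cow 1 only, at -1.75, 0.22, 0.38, 0.11 and 0.05 (SD 0.877, 0.143 without cow 1). DKK1, an inhibitor of WNT receptors, was -0.60, -2.51, -0.36, -0.25 and -2.05, with cows 2 and 5 below the other 3. The list mean lay between -0.19 and 0.12.

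Of 19 growth factor genes 4 were in the top 10%. TGFB2, a ligand of the TGF-beta family, was -1.80, -3.14, -4.31, -2.11 and -2.85 (SD 0.983, 0.521 with normexp correction and 0.627 without cow 3). IGFBP5, a binding protein of insulin-like growth factors, was 0.30, -0.75, -1.21, -1.90 and -1.34 (SD 0.827, 0.476 without cow 1), and both were highest in cow 1. Of the cholesterol synthesis genes 14 of 19 were highest in cow 1 and 12 lowest in cow 3, against 27.5% and 20.2% of all genes, with a list mean of 0.37 and -0.38 there. SQLE, an early enzyme of the sterol branch, was 2.76, 2.38, 1.11, 1.93 and 1.73. Of 17 measured proliferation genes 4 were in the top 10% and 9 were highest in cow 1, against 27.5% of all genes, and TOP2A was not measured on all 5 arrays. CDC20, an activator of the anaphase-promoting complex, was -3.50, -3.06, -4.91, -5.70 and -3.56, at a dim probe whose SD of 1.11 was 0.424 with normexp correction.

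Of 27 interferon-response genes 3 were in the top 10%, with a median SD of 0.203 against 0.216 for all genes. Of the 27, 12 were highest in cow 4 and 12 lowest in cow 1, against 15.3% and 24.2% of all genes. IFI44 and IFIT3, dim members in the top 10%, were lowest in cow 1. They had -4.43 and -5.48 there, against -3.91 to -2.56 and -4.18 to -3.79 in the other cows. MX1, an antiviral GTPase, was 0.69, 1.15, 0.77, 1.11 and 0.87, and IRF7, a regulator of interferon genes, was in the bottom 10% at an SD of 0.095. IFIH1, a sensor of double-stranded RNA, was the widest at -1.22, -2.19, -4.11, -1.89 and -4.31, with cows 3 and 5 low, but its SD of 1.38 was 0.699 as the mean of its probes and 0.713 with normexp correction. Of 14 clock and glucocorticoid target genes 1 was in the top 10%. PER2, a repressor of the clock, was low in cow 4 only, at -0.66, -0.85, -0.52, -1.79 and -0.60 (SD 0.521, 0.137 without cow 4). SGK1, a kinase induced by steroids, was low in cow 1, at 0.62, 2.15, 1.88, 2.39 and 1.59 (SD 0.685, 0.345 without cow 1).

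The nearest genes were also listed for other genes that mark a cell type or programme. Only genes of the top 10%, with an SD of at least 0.572, were searched. CD3E (0.332), DCN (0.396), CLDN3 (0.219), PGR (0.28) and MX1 (0.203) had smaller SDs themselves. The distance was not scaled to the SD, so genes close to that cut were favoured. A small distance here does not show a shared pattern. For CD3E the nearest were TNFSF15, CD8B, CXCR6, C3AR1 and DENND1B, at distances of 0.268 to 0.294. CD8B, the co-receptor of cytotoxic T cells, was -2.92, -2.18, -2.19, -1.47 and -3.02, highest in cow 4 and lowest in cows 5 and 1. For DCN they were APBB1IP, S100A13, NFE2, C1H21orf62 and OTUD1, at 0.196 to 0.223, and for the epithelial claudin CLDN3 GJB5, PSEN2, GALNT6, NPNT and TMED6, at 0.319 to 0.346. For PGR they included TNNI3, PLA2G2C, CRLF3 and CPVL, at 0.298 to 0.324, and for MX1 they were ZNF814, PPP1R3B, CIMIP3, ZNHIT6 and CADM3, at 0.355 to 0.382. None of these genes near PGR and MX1 is on a list, but few genes of their own lists could have been named. Of 12 receptor genes 1 was in the top 10%, and of 27 interferon-response genes 3 were.

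**Figure D5:**
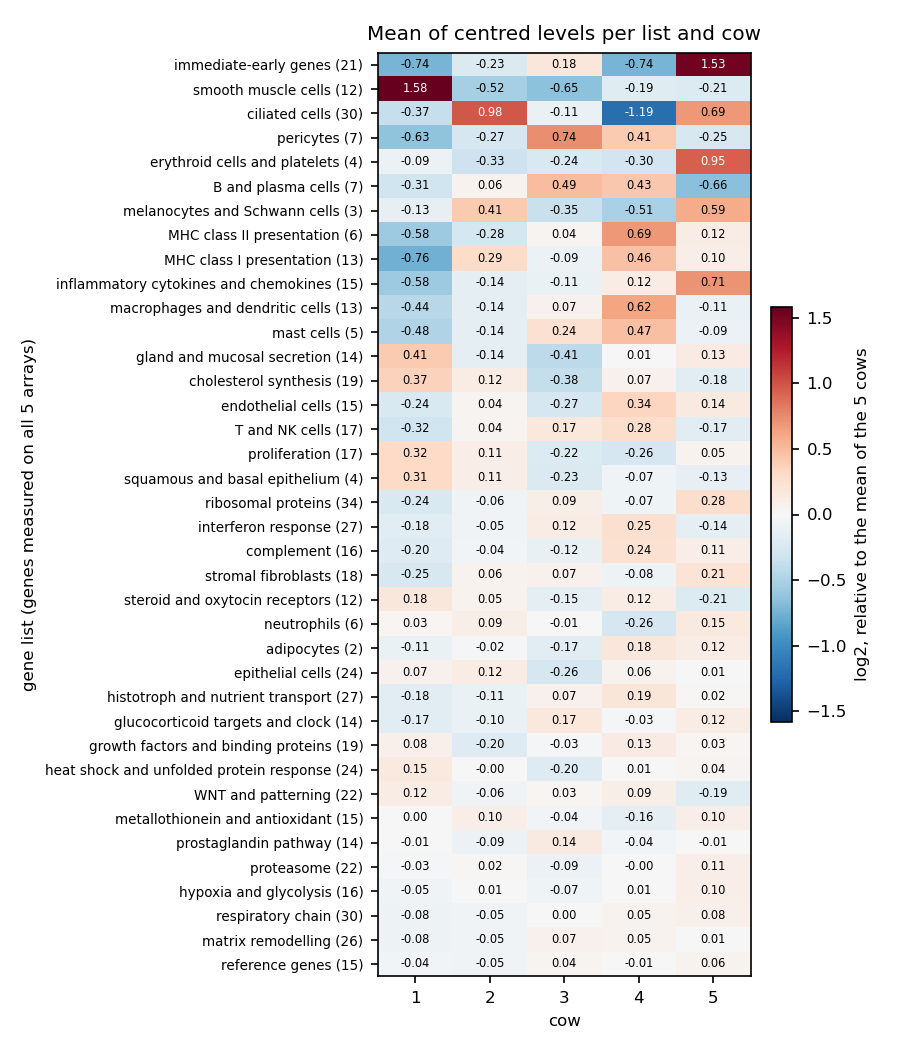
Rows are the 38 gene lists, in order of the SD of the list mean over the cows, with the number of measured genes in brackets, and columns the 5 cows. Colour and printed number are the mean over members of the level minus the mean of the gene (log2), from 1.58 for smooth muscle in cow 1 and 1.53 for immediate-early genes in cow 5 to values within 0.08 of 0 for reference and respiratory chain genes.

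The genes that differed least had SDs below that of repeated spots on 1 array. COQ9, needed to make coenzyme Q, had the smallest SD of all, 0.013, with levels of 2.0, 1.99, 2.02, 2.01 and 2.02. RPP14, a subunit of RNase P, followed at 0.016, with levels of 3.08, 3.1, 3.08, 3.11 and 3.11. CDC23, a subunit of the anaphase-promoting complex, was next at 0.018, with levels of -0.33, -0.35, -0.34, -0.31 and -0.31. In none of the 3 did any cow stand apart. SPG11, MTDH, ASF1A, SH2B1, PPP6R3, WDR43 and ALDH7A1 completed the 10 smallest, at 0.019 to 0.024. The order of such small values is not firm. With arrays centred on the median the SD of COQ9 was 0.0424, and the mean over its probes had an SD of 0.0624.

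Of 30 respiratory chain genes 12 were in the bottom 10% (10% of all genes) and none in the top 10%, with a median SD of 0.118. NDUFV1, a subunit of complex I, had an SD of 0.032 (0.0595 with normexp correction). Of 22 proteasome genes 4 were in the bottom 10% and none in the top 10%, with a median SD of 0.119. The widest, PSMB3 and PSMB6, had 0.199 and 0.191, the latter 0.0614 without cow 3. Of 15 reference genes used to scale other assays 3 were in the bottom 10%: PGK1 at 0.076 (0.025 without cow 4), GAPDH at 0.0793 and SDHA at 0.0889. HPRT1 at 0.392 and GUSB at 0.316 were the widest of that list, and HPRT1 ran from -1.22 in cow 1 to -0.21 in cow 4 (SD 0.26 without cow 4).

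Ribosomal protein genes differed by small steps. Of 34 measured 31 were highest in cow 5 and 24 lowest in cow 1, against 20% and 24.2% of all genes, with a list mean of 0.28 and -0.24 there. After removal of trends with brightness and GC content within arrays the SD of the list mean was 0.0574 instead of 0.194 and cow 5 no longer had the highest mean, and after quantile normalization it was 0.0685. RPL22 was the member in the top 10%, at -1.82, -0.66, 0.09, 0.13 and -0.61, with cow 1 low (SD 0.793, 0.432 without cow 1).

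Among complement genes 3 of 16 were in the top 10%, and CFI, an inhibitor of the cascade, was -0.37, -0.74, -1.41, 0.88 and -0.59, highest in cow 4 and lowest in cow 3. Among heat shock and unfolded protein genes there were 2 of 24, with CRYAB, a small chaperone, at -0.81, -0.67, -2.54, -1.05 and -1.36. Cow 3 was lowest for CRYAB too, and for 14 of the 24 genes, against 20.2% of all genes. Hypoxia and glycolysis genes had none of 16. Metallothionein and antioxidant genes had 4 of 15, among them HMOX1, the haem oxygenase, at 1.17, 1.68, 2.69, 2.83 and 1.92, high in cows 3 and 4, and NQO1, a quinone reductase, at 1.05, 1.88, 0.33, -0.06 and 0.90, high in cow 2.

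Prostaglandin pathway genes had 4 of 14 in the top 10%, among them PTGS2, the inducible cyclooxygenase, at -2.90, -3.49, -1.72, -2.41 and -2.87, highest in cow 3. Histotroph and nutrient transport genes had 7 of 27, and 14 of the 27 were highest in cow 4, against 15.3% of all genes. GRP, a secreted gland peptide, was low in cow 3 only, at 7.50, 7.39, 5.77, 7.55 and 7.60. FABP3, a fatty acid carrier, was high in cow 4 only, at -0.59, -0.34, -0.78, 1.16 and -0.16. Matrix remodelling genes had 4 of 26 in the top 10%, COL12A1 among them, and TNC, the matrix protein tenascin, was -0.98, -1.51, -0.52, 0.04 and -1.85, highest in cow 4. Of cell types that a biopsy might also hold, 4 of 12 squamous and basal epithelial genes, 2 of 7 adipocyte genes and 3 of 9 melanocyte and Schwann cell genes were well above background on all 5 arrays, with 0, 0 and 2 in the top 10%.

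Some genes were bright in 1 cow and not well above background in another, so that only a lower limit of their range can be given, from the highest cow down to the higher of the probe's own signal and the lowest signal well above background on the dim array. Of 571 such genes, dim on 1 or 2 arrays, 347 were dim in cow 5 and 27 in cow 1, the dimmest and brightest arrays. SOSTDC1, an antagonist of BMP and WNT signals, was 0.70, -4.82, -6.48, -5.61 and -6.84, at least 93-fold higher in cow 1 than in the lowest cow, and not well above background in cows 3 and 5. HBG, a globin gene, was at least 48.8-fold higher in cow 5, at -6.09, -5.17, -3.38, -6.20 and -0.49. PRG4, the lubricant lubricin, was at least 27.9-fold higher in cow 3, at -1.99, -4.74, -0.61, -2.65 and -5.87. FKBP6 was at least 23.5-fold higher in cow 5, SDSL at least 23.3-fold higher in cow 4 and SCGB1D, a secretoglobin of mucosal glands, at least 20.5-fold higher in cow 1. SCGB1D, like LTF and BPIFA1, was lowest in cow 3.

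The genes of the top 10% were highest in cow 1 in 27.4%, in cow 2 in 24.3%, in cow 3 in 13.3%, in cow 4 in 17.9% and in cow 5 in 17.2%, beside 27.5%, 18.2%, 19.0%, 15.3% and 20% of all genes. They were lowest in cow 1 in 24.4%, in cow 2 in 13.3%, in cow 3 in 20.2%, in cow 4 in 31.9% and in cow 5 in 10.2%, beside 24.2%, 14.7%, 20.2%, 24.2% and 16.7% of all genes. The largest gap between sorted levels set 1 cow above the other 4 in 314 genes (28.3%, 31.4% of all genes), 1 below 4 in 371 (33.5%, 30.7%) and 2 against 3 in 424 (38.2%, 37.9%). Cow 1 had the largest root mean square deviation from the gene means, 0.403, cow 4 0.353, and the others 0.294 to 0.319.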

How the data were processed

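Endometrial RNA of the 5 subfertile cows was measured on 1-colour Agilent arrays. The deposited scanner files hold linear intensity values per spot, from Feature Extraction software of version 10.5.1.1 (per the submitters' processing notes). The processed signal is background-subtracted per the file headers. The authors' deposited table holds log2 values centred per probe. Its differences between each cow and cow 1 equal those of log2 of the same signals, up to 1 shift per array (43713 entries, within 0.01). The levels themselves were therefore not compared. The centring rule of the table is not given in the sources used here.

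Control and outlier spots were left out, spots of a probe were averaged, and the 75th percentile of each array was subtracted from its log2 processed signal. No test between groups was made. Probe positions are those of HGSC Btau_3.1 in the file headers, and names were updated by accession (22033 probes), symbol (9991) or older symbol (383), with the file's own name for 11246. The table of names follows ARS-UCD2.0 and was used for names only. A gene is read by its brightest probe.

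Named genes were the 20 with the largest and 10 with the smallest SD, and 6 genes dim on some arrays. They also included 2 or 4 members of each of 38 lists with the largest SD and the one with the smallest. The rest were 12 genes that mark a cell type or programme and, for each measured on all 5 arrays, the 5 nearest genes of the top 10%. Some genes that this rule names are not reported here. The other list members and the single probes given beside them were chosen after their values were seen. The members and the lists were chosen with earlier results of these data known. Software was Python 3.11.15, numpy 2.4.6, pandas 2.3.3, R 4.3.3 and limma 3.58.1. The computation was tested on simulated data. Alternatives were median centring, quantile normalization, normexp with an offset of 50, filters on dim probes, the authors' table, removal of trends with brightness and GC content, the mean over probes, other measures of spread and leaving out each cow. The jackknife SE is a standard error of an SD, scaled up from its spread over the fits that leave out 1 cow. The number of arrays limits the precision. Breed and age are not given in the sources used here. The 6 fertile cows were not used.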

Additional observations from a re-analysis of the deposited data

Results flagged for a closer look

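A cow was called far from the others where its gap to the nearest cow, divided by the range over the 5 cows, passed Dixon's 95% critical value. Chance flags about 1 in 20 groups, and 623 of all 11093 genes (5.62%), 89 of the top 10% (8.03%), 25 of the 201 named genes (12.4%) and 2 of the 38 lists (5.26%) were flagged. The values that follow are this ratio of gap to range.

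Cow 1 was far above the others for ACTG2 (0.86), RSPO3 (0.822), CNN1 (0.812), PDLIM3 (0.801), KCNE4 (0.773), LYVE1 (0.746), ITGA8 (0.745), RNF112 (0.743), ASB2 (0.726) and TAGLN (0.718), and for the mean of the smooth muscle list (0.793). It was far below them for WNT2 (0.846), BOLA (0.812) and BOLA-NC1 (0.798). Cow 5 was far above for CCL2 (0.831), S100A8 (0.726), ATF3 (0.716) and CXCL3 (0.716), and for the mean of the erythroid and platelet list (0.812). Cow 4 was far above for LIFR (0.812), a cytokine receptor, and SFRP4 (0.71), and far below for PER2 (0.745) and PLA2G2F (0.73). Cow 3 was far below for MUC1 (0.889), KRT7 (0.736) and PSMB6 (0.726). Cow 2 was far above for CDH1 (0.744). The ratio does not give the size of a gap: the range over the cows was 0.14 for CDH1 and 0.25 for LIFR, against 4.39 for ACTG2. The SD of CDH1, 0.058, was below the median SD of repeated spots on 1 array, 0.0608.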

How the results depend on the processing

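The median SD over genes was 0.216 as reported, 0.186 with normexp background correction, 0.274 with no filter on dim probes and 0.191 to 0.221 leaving out 1 cow. The genes with an SD of at least 1 numbered 242 as reported, 101 with normexp, 639 with no filter and 193 to 297 leaving out 1 cow. The difference between slides was 0.0355 to 0.0462 under its 4 alternatives, all of which kept cow 1. Of 201 named genes the SD differed by more than 1.5 times in 55 with normexp, 42 of them smaller, in 25 with the mean over probes, in 9 with median centring, in 6 with trends removed and in 4 with quantile normalization. It differed so in 33, 5, 17, 20 and 12 genes without cow 1, 2, 3, 4 and 5. The median level of the 55 genes was -3.54, against 0.06 for the others. Of the 1109 genes of the top 10%, 638 stayed there with no filter, 755 by median absolute deviation, 846 with normexp and 880 to 987 leaving out 1 cow. The counts of list members in the top 10% without a cow were added after seeing the data. No paired analysis was possible because no groups were compared.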
